A study of Arabidopsis thaliana with 6 samples.

Results

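UDP-glycosyltransferases (UGTs) are the enzymes that move a sugar from a UDP-sugar donor, most often UDP-glucose, onto small molecules. In plants the acceptors include hormones, monolignols, flavonoids, sterols and xenobiotics, and the glycoside is usually more soluble than the free compound, often inactive, and can be stored in the vacuole. Beta-glucosidases can release the free compound again. Monolignol glucosides are one form in which lignin precursors are held, and lignin forms at the floral abscission zone of Arabidopsis thaliana, the tissue from which petals, sepals and stamens are shed.

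The UGT genes were taken as the rows of the deposited count table whose name has the form UGT, a family number and a letter, or whose description names a UDP-glycosyltransferase or UDP-glucosyl transferase, without UGT78D1 and UGT78D2. This gave 128 of 33602 genes, of which 106 carry a UGT symbol, with UGT76B1 taken from the RefSeq name of AT3G11340, and 22 carry none. Those 22 entered by description alone, as UDP-glycosyltransferase superfamily proteins, which does not give their sugar donor or acceptor. They are called UGT genes here for that description only. Counts of the 128 genes came from 2 groups of 3 libraries each. Residuum cells (REC) are the zone cells that stay on the receptacle, and secession cells (SEC) depart with the shed organ. Both groups were taken from stage 16 flowers of 1 genotype, proQRT2::nlsGFP-GUS, and the labels give no treatment. In this reporter a nuclear fluorescent protein is under the promoter of QRT2, which encodes a polygalacturonase. Cells were sorted as protoplasts by this fluorescence, so both groups hold cells chosen for QRT2 promoter activity, and whether the libraries came from separate plants or sorts is not given. The p-values below therefore measure the spread between these libraries, which may be technical.

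Gene totals were 13222538 to 17192864 counts per library. Levels are TMM-scaled counts relative to library size (CPM), fold changes are SEC relative to REC, and a gene is called where the adjusted p of edgeR's quasi-likelihood test over all 17246 genes tested is under 0.05. Of the genes that mark the abscission zone, QRT2 stood at 22.6 to 79.6 CPM in REC and 1552 to 1848 CPM in SEC, and the peptide gene IDA at 0, 0.331 and 6.17 CPM in REC replicates 1, 2 and 3 against 343 to 496 CPM in SEC. The receptor kinase gene HAE was at 122, 131 and 354 CPM in REC and 1031 to 1575 CPM in SEC. The endopolygalacturonase gene ADPG2 was at 0.784, 1.66 and 27.8 CPM in REC and 3895 to 5656 CPM in SEC. The receptor kinase gene HSL2 went the other way, at 62.4, 65.2 and 39.98 CPM in REC and 17.5, 21.1 and 11.4 CPM in SEC, and was called lower (fell by 1.74 ± 0.32 on the log2 scale, edgeR adjusted p = 0.00207). In each of these 5 markers REC replicate 3 was the REC library nearest to SEC, as it was over all genes. Without it the log2 fold changes of QRT2, IDA, HAE and ADPG2 went from 5.36, 7.51, 2.70 and 8.82 to 6.23, 11.1, 3.39 and 11.86. Values of UGT genes without this library are given below where they change a call or move a called fold by over 1.5 times. The mesophyll markers LHCB1.1, LHCB2.1 and RBCS1A, all 3 called lower, summed to 701 to 1415 CPM in REC and 1.58 to 4.99 CPM in SEC. Of 8 wounding, oxidative and xenobiotic response markers 7 were called higher, and their sum was 1853 to 2318 CPM in REC and 9326 to 12430 CPM in SEC, with none at 0 in all libraries. Epidermis markers summed to 33.2 to 53.4 CPM in REC and 0 to 4.35 CPM in SEC, and both nectary markers were at 0. In sorted bulk samples fewer cells of a type and less RNA per cell cannot be told apart, and the part that mesophyll cells or protoplast stress have in the UGT results was not tested.

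UGT transcripts were more abundant in SEC than in REC, and a few genes made up most of the difference. Per kilobase of exon, the UGT genes summed to 873, 938 and 1306 CPM per kb in REC replicates 1, 2 and 3 and to 5221, 5241 and 6179 CPM per kb in SEC replicates 1, 2 and 3. The groups did not overlap. UGT73B2 alone made up 29.4% to 36.4% of the SEC sums, and without it the sums were 799 to 1214 CPM per kb in REC and 3505 to 3931 CPM per kb in SEC. The 3 leading genes held 58.1% to 63.2% of the sum in SEC and 33.2% to 38.5% in REC. In REC the leading gene was UGT73B3 in every library. By mean level the order in REC was UGT73B3 (154 ± 47.9 CPM per kb, SD, n = 3), UGT73B5 (96.3 ± 11.9), UGT73B2 (81.8 ± 9.17), UGT74E2 (71.3 ± 94.1), UGT75B1 (69.4 ± 17.7) and UGT74E1 (65.1 ± 41.7), where each gene's mean ± SD overlapped that of its neighbours in the order. In SEC the order was UGT73B2 (1835 ± 368), UGT85A1 (956 ± 265), UGT75B1 (624 ± 36.5), UGT73B3 (512 ± 104), UGT73B5 (223 ± 80.8) and UGT72B1 (174 ± 47.9), and the ranges of UGT75B1 and UGT73B3, and of UGT73B5 and UGT72B1, overlapped.

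Of the 128 UGT genes, 83 had enough reads for the test, 20 had 0 counts in every library and 25 had some counts but fell under the filter. Of these 25, 14 had reads in SEC only, 6 in REC only and 5 in both, with at most 106 counts over the 6 libraries (UGT85A5). Those with 0 counts included the auxin genes UGT84B1 and UGT84B2, the flavonol gene UGT78D3, UGT73C2, and UGT76C3, UGT76C4 and UGT76C5 of the cytokinin subfamily. Between 68 and 85 UGT genes had a read in a REC library and between 88 and 90 in a SEC library. Among the 83, calls were made for 42, of which 31 (37.3% of those tested) rose in SEC and 11 (13.3%) fell, and 41 got no call. Over all 17246 genes tested, 28.9% were higher and 31.9% lower, 60.8% in either direction. Every called UGT gene differed at least 2-fold. The median log2 fold change was 1.05 over the tested UGT genes and -0.07 over all tested genes. Scaling by library size alone moved the median of all genes to -0.61 and gave 23 UGT genes higher and 15 lower, and the share of all calls that were higher fell from 47.5% to 33.7%. Without REC replicate 3, 37 were higher and 10 lower, against 30.3% and 30.3% of all genes. The libraries of SEC all lay above those of REC for 40 UGT genes, where 34.6% of all genes did so, and all below for 16, where 36.9% of all genes did so. In the other 27 the groups overlapped, while 71.5% of all genes had groups that did not overlap. Without each library in turn, 32 of the 42 calls held (23 higher and 9 lower). Of the tested genes 30 overlap a gene on the opposite strand, 9 of them among the 42 called. Of the genes with a UGT symbol 28 of 68 tested were higher and 9 lower, and of those without one 3 of 15 were higher and 2 lower. The median log2 fold change was 1.66 for tested genes with a symbol and -0.062 for those without. Of the 106 genes with a UGT symbol 57 have 1 exon and 41 have 2, and single-exon genes made up 17 of the 31 higher, 5 of the 11 lower and 36 of the 83 tested UGT genes.

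**Figure D1:**
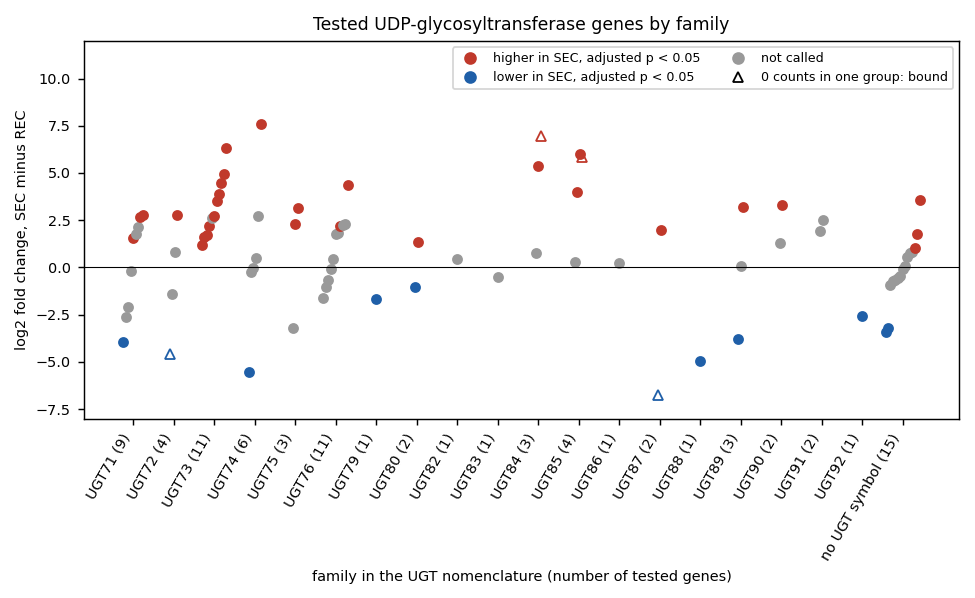
Log2 fold change (SEC minus REC, vertical axis) of each of the 83 tested UGT genes, by family (horizontal axis, number tested in brackets). Red points were called higher, blue lower and grey not called, and triangles are bounds for genes with 0 counts in one group. Of 11 tested UGT73 genes 10 are red and none is blue.

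The UGT73 family, many of whose members respond to stress and to xenobiotics, held 10 of the 31 higher calls, with 11 of its 13 genes tested and none lower. UGT73B2, which can glucosylate flavonols, was at 168, 184 and 209 CPM in REC replicates 1, 2 and 3 and at 3923, 3523 and 5136 CPM in SEC replicates 1, 2 and 3. Every SEC library was far above every REC library, and the gene had the highest level per length of all UGT genes in SEC (1835 ± 368 CPM per kb, SD, n = 3, against 81.8 ± 9.17 in REC). The log2 fold change was 4.49 ± 0.25 (SE; edgeR adjusted p = 1.4e-05). Its neighbour UGT73B3 was at 229, 216 and 369 CPM in REC and 955, 699 and 1053 CPM in SEC (log2 fold change 1.73 ± 0.28, edgeR adjusted p = 0.00107). UGT73B1, the third gene of the array, was at 21.7, 33.4 and 22.9 CPM in REC and 103, 65.5 and 66.6 CPM in SEC (1.59 ± 0.29, edgeR adjusted p = 0.00177). None of the 3 genes overlapped between the groups. In REC, UGT73B3 stood at 154 ± 47.9 CPM per kb and UGT73B2 at 81.8 ± 9.17, while in SEC UGT73B3 stood at 512 ± 104 CPM per kb, below UGT73B2. UGT73B3 and UGT73B1 each overlap genes on the opposite strand, and the strand setting of the counts is not given in the sources used here. Reads from the overlapping stretches therefore cannot be told apart by gene.

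The 3 genes lie in tandem on the minus strand of chromosome 4 (UGT73B3 at 16343057 to 16344818, UGT73B2 at 16345281 to 16347133 and UGT73B1 at 16348106 to 16349982, TAIR10), with 1 exon in UGT73B3 and 2 in each of the others. The coding sequences of UGT73B3 and UGT73B2 were 88.8% identical, and UGT73B1 was 72.0% identical to UGT73B3 and 71.9% to UGT73B2. The 250 bases before the annotated start of each gene are shown because the 3 neighbours were called in 1 direction. They come from RefSeq TAIR10.1, whose gene starts can lie apart from those of the deposited table, and are written on the gene's strand, and capitals mark TGACG, the core bound by TGA factors, and the W boxes TTGACC and TTGACT, bound by WRKY factors, each read on both strands.
UGT73B3, chr4:16344819-16345068, minus strand: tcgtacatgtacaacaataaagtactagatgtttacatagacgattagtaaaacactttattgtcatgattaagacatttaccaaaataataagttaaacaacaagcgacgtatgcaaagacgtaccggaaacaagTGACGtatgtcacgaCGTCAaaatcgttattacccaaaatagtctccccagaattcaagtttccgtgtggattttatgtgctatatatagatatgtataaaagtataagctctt
UGT73B2, chr4:16347435-16347684, minus strand: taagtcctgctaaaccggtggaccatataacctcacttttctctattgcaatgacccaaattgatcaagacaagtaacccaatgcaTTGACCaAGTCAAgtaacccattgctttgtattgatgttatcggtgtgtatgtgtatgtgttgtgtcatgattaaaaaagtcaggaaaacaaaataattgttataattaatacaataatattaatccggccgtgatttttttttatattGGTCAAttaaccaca
UGT73B1, chr4:16350204-16350453, minus strand: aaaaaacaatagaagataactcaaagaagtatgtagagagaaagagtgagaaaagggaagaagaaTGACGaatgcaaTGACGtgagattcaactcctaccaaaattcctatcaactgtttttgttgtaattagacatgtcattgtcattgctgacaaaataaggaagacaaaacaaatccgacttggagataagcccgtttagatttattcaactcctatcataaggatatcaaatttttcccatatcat
UGT73B3 held TGACG 114 and 99 bases before its start and UGT73B1 held it at 185 and 173. UGT73B2 held no TGACG in this window and 3 W boxes, at 164, 157 and 15. Over 27443 protein-coding genes, 18.6% of windows of this length held TGACG and 28.4% a W box. Of the 31 higher UGT genes 10 (32.3%) held TGACG and 13 (41.9%) a W box. Of the 11 lower genes 3 (27.3%) and 4 (36.4%) did, and of the 41 not called 7 (17.1%) and 9 (22.0%) did. Among all genes called higher, 21.3% held TGACG and 32.5% a W box, and among all genes called lower, 19.4% and 25.8%. A match of letters does not show that a factor binds there.

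UGT73B4 and UGT73B5, stress-responsive neighbours on chromosome 2 (6761635 to 6763500 and 6758681 to 6763501, plus strand), were both higher in SEC. UGT73B4 was at 22.9, 27.7 and 38.8 CPM in REC and 139, 141 and 135 CPM in SEC (log2 fold change 2.22 ± 0.25, edgeR adjusted p = 0.000154). UGT73B5 was at 251, 234 and 196 CPM in REC and 349, 497 and 727 CPM in SEC (1.21 ± 0.29, edgeR adjusted p = 0.0068). Neither gene overlapped between the groups. With scaling by library size alone the log2 fold change of UGT73B5 was 0.66 and the call was lost (edgeR adjusted p = 0.0756). The annotated exons of these 2 genes share 255 bases on the same strand and their coding sequences are 89.3% identical, so the division of reads between them is uncertain.

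UGT73D1 had the largest fitted fold change of the family. It was at 0.845, 3.59 and 0.353 CPM in REC and 115, 147 and 130 CPM in SEC (log2 fold change 6.34 ± 0.74, edgeR adjusted p = 0.000199), and without REC replicate 2 the log2 fold change was 7.75. Its neighbour on chromosome 3, UGT73C7, was at 0, 0.994 and 2.00 CPM in REC and 11.4, 19.2 and 14.1 CPM in SEC (3.89 ± 1.03, edgeR adjusted p = 0.0112), and 4.87 without REC replicate 3. Both genes were near 0 in every REC library and separate from SEC.

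The UGT73C genes of chromosome 2 were low in REC, with replicate 3 the highest REC library of each. UGT73C3 was at 0, 0 and 3.35 CPM in REC replicates 1, 2 and 3 and at 40.2, 36.9 and 24.9 CPM in SEC (log2 fold change 4.92 ± 1.36, edgeR adjusted p = 0.0138). REC replicate 3 held all its REC reads, and SEC was, without that library, at least 393-fold higher, with 3 counts over the group as the floor. Without REC replicate 2 the log2 fold change was 4.33. UGT73C4 was at 1.33, 2.37 and 22.8 CPM in REC and 71.1, 61.7 and 44.2 CPM in SEC (2.74 ± 0.94, edgeR adjusted p = 0.0343). Its log2 fold change was 4.99 without REC replicate 3 (edgeR adjusted p = 6.09e-05), and leaving out any other library lost the call. Scaling by library size alone lost it too. UGT73C5, which glucosylates brassinosteroids, cytokinins and the mycotoxin deoxynivalenol, was at 0, 3.64 and 8.47 CPM in REC and 46.1, 34.7 and 59.4 CPM in SEC (3.53 ± 1.09, edgeR adjusted p = 0.0223). Its log2 fold change was 4.66 without REC replicate 3, and the call was lost without REC replicate 2 (edgeR adjusted p = 0.0647), SEC replicate 1 (0.0514) or SEC replicate 3 (0.068). DESeq2 did not call UGT73C3 or UGT73C5. UGT73C6, a brassinosteroid and flavonol glucosyltransferase gene, was at 0, 0 and 1.06 CPM in REC and 2.84, 2.94 and 0.929 CPM in SEC and was not called (edgeR adjusted p = 0.177), but was called without REC replicate 3 (edgeR adjusted p = 0.0067). Coding sequences in this array are up to 91.3% identical (UGT73C4 with UGT73C3), and 6.76% to 10.1% of the 50-base words in exons of these 4 genes recur in the genome, so their levels are uncertain.

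**Figure D2:**
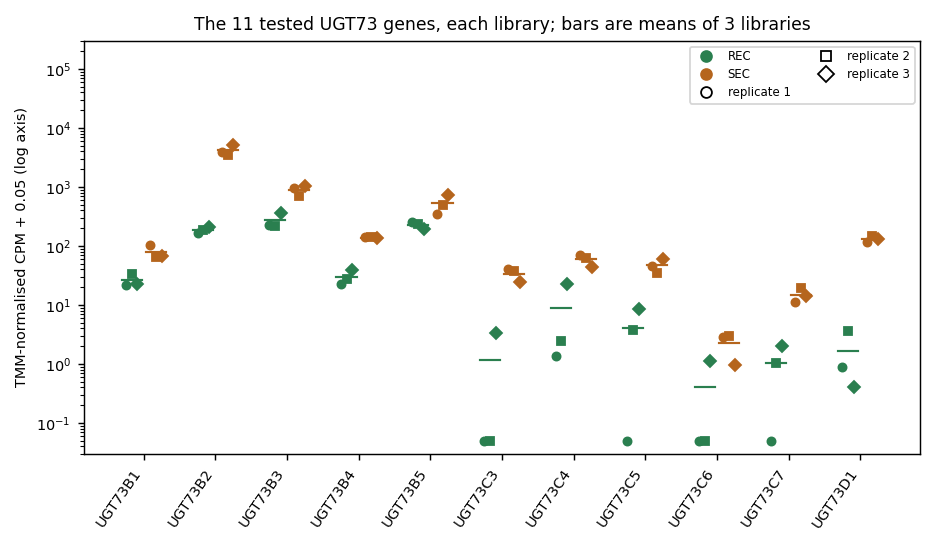
Level of the tested UGT73 genes in each library, as CPM plus 0.05 on a log axis (vertical), with REC and SEC libraries as separate colours, 1 point a library and a bar at each mean. UGT73B2 reaches 3523 to 5136 CPM in SEC, and the UGT73C genes are at 0 to 3.64 CPM in REC replicates 1 and 2.

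The genes listed for lignin precursors were those of the UGT72 family. Of the 8 listed genes 4 were tested, 1 (25.0%) was higher in SEC, 1 (25.0%) lower and 2 were not called. These shares lie near the 28.9% higher and 31.9% lower of all genes tested. UGT72B1, which glucosylates monolignols and chlorinated xenobiotics, was at 66.4, 65.4 and 23.6 CPM in REC and 257, 356 and 453 CPM in SEC. All SEC libraries were above all REC libraries, and REC replicate 3 was the lowest (log2 fold change 2.78 ± 0.43, edgeR adjusted p = 0.000785). UGT72E1, which glucosylates coniferyl and sinapyl aldehyde, was at 2.72, 1.27 and 1.88 CPM in REC and had 0 counts in all 3 SEC libraries, at least 23.9-fold lower (edgeR adjusted p = 0.00414) and at least 14.4-fold without SEC replicate 2. UGT72E3, a monolignol glucosyltransferase gene, was at 2.29, 1.16 and 0 CPM in REC and 0.0888, 0.273 and 0.929 CPM in SEC, with overlapping groups and no call (edgeR adjusted p = 0.434). UGT72E2, which forms coniferin and syringin, had 0 counts in every library, which at this depth allows up to 0.058 CPM over REC and 0.0818 CPM over SEC. UGT72C1 was at 2.29 to 3.74 CPM in REC and 3.995 to 5.67 CPM in SEC and was not called (edgeR adjusted p = 0.202).

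Of the UGT84A genes, which form glucose esters of sinapate and other hydroxycinnamates, 3 of 4 were tested, 2 were higher and 1 was not called. UGT84A2, the sinapate glucosyltransferase gene, was not detected in REC (0 counts) and had levels of 6.30, 2.60 and 12.9 CPM in SEC. SEC was at least 125-fold higher (edgeR adjusted p = 0.00133), at least 76.7-fold higher without SEC replicate 3 and at least 81.4-fold without REC replicate 2. UGT84A4 was at 0, 0 and 0.588 CPM in REC and 4.70, 8.54 and 11.6 CPM in SEC (log2 fold change 5.35 ± 1.32, edgeR adjusted p = 0.00809), with all REC reads in replicate 3 and SEC at least 95.8-fold higher without it, and the log2 fold change was 4.76 without REC replicate 2. UGT84A1 overlapped between the groups, at 0.543 to 4.09 CPM in REC and 1.67 to 4.08 CPM in SEC (edgeR adjusted p = 0.491). Levels of all 3 genes were low against those of UGT73B2.

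Of the UGT genes on the hormone lists that were called, all but UGT74E1 were higher in SEC, and other tested genes on these lists were not called. Over all genes tested, 28.9% were higher and 31.9% lower. The calls on UGT71C5, UGT73C5, UGT76B1 and UGT76E12 were each lost without at least 1 library. For abscisic acid, 3 of 4 listed genes, whose enzymes form its inactive glucose ester, were tested and all 3 were higher. UGT71B7 was at 42.2, 24.5 and 32.6 CPM in REC and 235, 205 and 232 CPM in SEC (log2 fold change 2.76 ± 0.25, edgeR adjusted p = 6.16e-05). Its neighbour UGT71B6 was at 2.66, 7.56 and 7.53 CPM in REC and 32.2, 41.2 and 41.3 CPM in SEC (2.69 ± 0.43, edgeR adjusted p = 0.00101), and it overlaps an opposite-strand gene. Neither gene overlapped between the groups. UGT71C5 was at 1.45, 4.53 and 3.18 CPM in REC and 7.28, 12.1 and 7.25 CPM in SEC (1.54 ± 0.56, edgeR adjusted p = 0.0414). The call on UGT71C5 was lost without any 1 library other than REC replicate 2, and with scaling by library size alone (edgeR adjusted p = 0.167).

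Among 6 tested genes listed for auxins, 2 were higher, 1 lower and 3 not called. UGT75B1, which glucosylates aminobenzoate and is linked to callose synthase at the cell plate, was at 132, 191 and 121 CPM in REC and 1420, 1311 and 1270 CPM in SEC. The groups were far apart (log2 fold change 3.17 ± 0.25, edgeR adjusted p = 3.2e-05). Per length it was the third gene in SEC at 624 ± 36.5 CPM per kb (SD, n = 3), and its range of mean ± SD overlapped that of UGT73B3, the fourth gene. UGT75D1, which glucosylates the auxin precursor indole-3-butyric acid, was at 25.8, 33.2 and 47.3 CPM in REC and 177, 166 and 184 CPM in SEC (2.31 ± 0.26, edgeR adjusted p = 0.000169). Both genes overlap an opposite-strand gene. UGT74D1, an auxin glucosyltransferase gene, was at 3.14, 0 and 2.59 CPM in REC and 11.01, 13.7 and 13.4 CPM in SEC and missed the threshold (edgeR adjusted p = 0.0568), which it passed without REC replicate 2 (edgeR adjusted p = 0.00672). UGT76F1, which glucosylates the auxin precursor indole-3-pyruvic acid, was at 0.724 to 1.59 CPM in REC and 1.15 to 7.06 CPM in SEC (edgeR adjusted p = 0.0925).

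The neighbours UGT74E1 and UGT74E2 on chromosome 1 (1701116 to 1702749 and 1703092 to 1704691, minus strand) had different results, and REC replicate 3 stood highest of the REC libraries for both. UGT74E1 was at 58.2, 64.4 and 169 CPM in REC and 3.20, 1.03 and 2.23 CPM in SEC. It was far higher in every REC library (fell by 5.51 ± 0.61 on the log2 scale, edgeR adjusted p = 0.000153), and by 4.84 without REC replicate 3. UGT74E2, which glucosylates indole-3-butyric acid and responds to water stress, was at 25.0, 34.7 and 316 CPM in REC and 134, 49.5 and 130 CPM in SEC. REC replicate 3 was above all SEC libraries and the other two below them, and the gene was not called (log2 fold change -0.26 ± 0.89, edgeR adjusted p = 0.814). Without REC replicate 3 it was called higher in SEC (1.81, edgeR adjusted p = 0.00967). Their coding sequences are 89.5% identical.

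For cytokinins, 2 of 4 tested genes were higher, UGT85A1 and UGT73C5, and the N-glucosyltransferase genes UGT76C1 and UGT76C2 were not called. UGT85A1 (chromosome 1, 7903660 to 7906673, minus strand), which forms the O-glucoside of trans-zeatin, was at 137, 119 and 110 CPM in REC and 1323, 2334 and 2142 CPM in SEC. The lowest SEC library was far above the highest REC library (log2 fold change 3.98 ± 0.29, edgeR adjusted p = 2.46e-05), and per length it stood second to UGT73B2 in SEC, at 956 ± 265 CPM per kb (SD, n = 3). In the same array UGT85A2 was at 0.0603, 0 and 0.353 CPM in REC and 4.44, 10.4 and 13.5 CPM in SEC (6.02 ± 1.09, edgeR adjusted p = 0.00178), and 7.97 without REC replicate 3. UGT85A3 had 0 counts in REC and 1.15, 2.73 and 6.04 CPM in SEC, at least 57.0-fold higher (edgeR adjusted p = 0.00347) and at least 33.5-fold without SEC replicate 3 or 37.0-fold without REC replicate 2. All 3 tested genes of this array were thus higher, at levels that differed widely. UGT76C1 (0 to 4.14 CPM in REC, 0 to 0.929 in SEC) and UGT76C2 (0.828 to 2.76 CPM in REC, 0.621 to 1.21 in SEC) overlapped between the groups (edgeR adjusted p = 0.431 and 0.301).

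Of 3 tested genes for salicylic acid and benzoates, 2 were higher. UGT74F2 (chromosome 2, 18152227 to 18153908, plus strand), which forms the glucose ester of salicylic acid, was at 0, 0 and 0.588 CPM in REC and 39.0, 44.7 and 33.4 CPM in SEC (log2 fold change 7.59 ± 0.98, edgeR adjusted p = 0.000326). It was the largest fitted rise among UGT genes with some REC counts and a SEC mean of at least 10 CPM. All its REC reads were in replicate 3, and SEC was at least 451-fold higher without that library, while the log2 fold change was 6.995 without REC replicate 2. UGT74F2 overlaps an opposite-strand gene. UGT76B1, which glucosylates salicylic acid, isoleucic acid and N-hydroxypipecolic acid, was at 0, 0 and 0.470 CPM in REC and 1.24, 7.65 and 1.115 CPM in SEC (4.35 ± 1.60, edgeR adjusted p = 0.0439). Its call held only when REC replicate 3 was the library left out (at least 38.6-fold higher), and the log2 fold change was 2.80 without SEC replicate 2. The call on UGT76B1 was also lost with scaling by upper quartile or library size alone and with the replicate block. UGT89A2, which acts on dihydroxybenzoates, overlapped between the groups at 1.66 to 5.55 CPM in REC and 2.46 to 3.995 CPM in SEC (edgeR adjusted p = 0.909), and its sign turned with scaling by library size or upper quartile.

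Of 3 tested jasmonate genes, which act on hydroxyjasmonate, 1 was called. UGT76E12 was at 0.905, 0.828 and 1.65 CPM in REC and 7.46, 5.54 and 2.69 CPM in SEC (log2 fold change 2.21 ± 0.69, edgeR adjusted p = 0.0225). Leaving out REC replicate 1 or 2 or SEC replicate 1 or 2 lost this call. Scaling by library size alone or adding the replicate block lost it too, and UGT76E12 overlaps an opposite-strand gene. UGT76E1 was at 0 to 1.18 CPM in REC and 2.26 to 3.20 CPM in SEC (edgeR adjusted p = 0.14) and UGT76E11 at 0.181 to 1.05 and 1.07 to 2.60 CPM (edgeR adjusted p = 0.155). The brassinosteroid list holds UGT73C5 and UGT73C6, given above.

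Of the 6 tested genes on the list for flavonoids and anthocyanins, 2 were higher (UGT73B1 and UGT84A2, given above) and 2 lower. The list does not hold UGT73B2 or UGT73C6, which can also act on flavonols and are given above with their family. UGT89C1, the flavonol rhamnosyltransferase gene, was at 13.6, 15.6 and 12.8 CPM in REC and 0, 1.85 and 1.115 CPM in SEC. REC was well above SEC in every library (fell by 3.79 ± 0.94 on the log2 scale, edgeR adjusted p = 0.00848), and by 4.70 without SEC replicate 2, and the gene overlaps one on the opposite strand. UGT79B2, which adds a sugar to anthocyanins, was at 21.6, 17.4 and 26.2 CPM in REC and 3.99, 9.98 and 6.13 CPM in SEC (fell by 1.69 ± 0.41, edgeR adjusted p = 0.00765). It is 95.4% identical in coding sequence to its untested neighbour UGT79B3, and 19.5% of its 50-base words recur in the genome, so its level is uncertain. UGT75C1, the anthocyanin glucosyltransferase gene, was at 2.53 to 3.41 CPM in REC and 0 to 1.02 CPM in SEC and was not called (edgeR adjusted p = 0.0886). UGT71C1 overlapped between the groups (edgeR adjusted p = 0.302). Without SEC replicate 3 both were called lower (edgeR adjusted p = 0.00623 and 0.0205).

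Both sterol glucosyltransferase genes, each with 15 exons, were called, in opposite directions. UGT80A2 was at 54.1, 65.8 and 79.2 CPM in REC and 193, 145 and 174 CPM in SEC (log2 fold change 1.36 ± 0.22, edgeR adjusted p = 0.00113). UGT80B1 was at 32.6, 14.8 and 26.9 CPM in REC and 11.9, 14.6 and 9.66 CPM in SEC (fell by 1.04 ± 0.37, edgeR adjusted p = 0.0387). The gap between the groups was narrow for UGT80B1, and its call was lost without any 1 library other than REC replicate 2. Neither glucosinolate gene was called. UGT74B1 was at 6.12 to 10.6 CPM in REC and 4.55 to 10.03 CPM in SEC (edgeR adjusted p = 0.95), and UGT74C1 at 3.09 to 4.77 and 3.73 to 7.803 CPM (edgeR adjusted p = 0.422).

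The neighbours UGT87A2 and UGT87A1 on chromosome 2 (12872134 to 12873820 and 12874706 to 12876122, plus strand, 2 exons each) were the only array with calls in both directions, among 13 arrays with at least 2 tested genes. UGT87A2, known for a role in flowering time, was at 41.2, 61.2 and 97.7 CPM in REC and 440, 219 and 138 CPM in SEC (log2 fold change 2.00 ± 0.47, edgeR adjusted p = 0.00688). UGT87A1 was at 9.53, 6.46 and 10.8 CPM in REC and had 0 counts in all SEC libraries, at least 109-fold lower (edgeR adjusted p = 0.000382), and at least 65.5-fold lower without SEC replicate 2. Neither gene overlapped between the groups, and their coding sequences are 79.7% identical. The 250 bases before the annotated starts are shown because these neighbours were called in opposite directions.
UGT87A2, chr2:12871734-12871983, plus strand: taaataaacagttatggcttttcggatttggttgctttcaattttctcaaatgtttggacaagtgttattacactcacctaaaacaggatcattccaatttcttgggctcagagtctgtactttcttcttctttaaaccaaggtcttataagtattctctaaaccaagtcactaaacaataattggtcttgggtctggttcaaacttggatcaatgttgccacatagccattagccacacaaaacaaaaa
UGT87A1, chr2:12874215-12874464, plus strand: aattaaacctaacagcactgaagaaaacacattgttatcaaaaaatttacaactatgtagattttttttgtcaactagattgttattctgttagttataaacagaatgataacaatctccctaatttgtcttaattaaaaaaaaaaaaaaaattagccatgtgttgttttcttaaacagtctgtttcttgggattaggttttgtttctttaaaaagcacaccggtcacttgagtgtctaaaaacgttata
Neither window held TGACG or a W box on either strand, so no letters are capitals. In all, 69 UGT genes lay in 23 such arrays, in which no more than 1 other gene separates neighbours. Of 41 tested array genes 21 (51.2%) were higher and 4 (9.76%) lower. Of 42 tested genes outside arrays 10 (23.8%) were higher and 7 (16.7%) lower, against 28.9% and 31.9% of all genes. Array neighbours can share sequence, as UGT73B4 and UGT73B5 do, so their calls may not be independent. Among the 13 arrays with at least 2 tested genes, all tested genes were higher in 4, those of UGT73B3, UGT73B5, UGT73D1 and UGT85A1. All were lower in 0 of the 13.

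**Figure D3:**
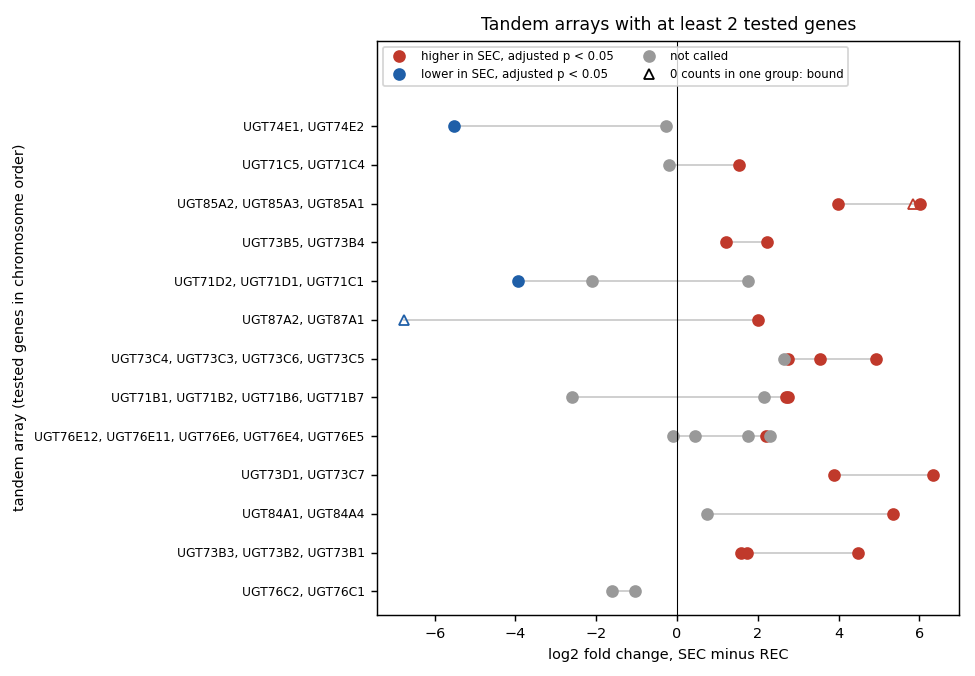
Log2 fold change (SEC minus REC, horizontal axis) of each tested gene in the 13 tandem arrays with at least 2 tested genes, 1 row an array. Red points were called higher, blue lower and grey not called, and triangles are bounds. UGT87A2 and UGT87A1 lie on either side of 0.

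Other UGT genes lower in SEC had clear gaps between the groups. UGT92A1 was at 64.1, 70.3 and 71.9 CPM in REC and 6.57, 12.7 and 15.2 CPM in SEC (fell by 2.58 ± 0.34 on the log2 scale, edgeR adjusted p = 0.000343). UGT88A1 was at 13.3, 20.9 and 16.4 CPM in REC and 1.69, 0 and 0 CPM in SEC (fell by 4.93 ± 1.25, edgeR adjusted p = 0.00924). All SEC reads of UGT88A1 were in replicate 1, and without it SEC was at least 143-fold lower. UGT71D1 was at 13.0, 19.8 and 19.5 CPM in REC and 0.266, 0.683 and 2.51 CPM in SEC (fell by 3.93 ± 0.75, edgeR adjusted p = 0.00236), and by 5.14 without SEC replicate 3. AT1G19710, a gene with no UGT symbol, was at 11.3, 7.40 and 17.5 CPM in REC and 2.84, 0.410 and 0.186 CPM in SEC (fell by 3.40 ± 0.94, edgeR adjusted p = 0.0136), and by 5.27 without SEC replicate 1. AT1G19710 overlaps a gene on the opposite strand. The sum of the mesophyll markers fell as well, from 701 to 1415 CPM in REC to 1.58 to 4.99 CPM in SEC, and its part in these falls was not tested.

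Among the remaining higher genes, UGT89B1 was at 3.68, 8.45 and 5.65 CPM in REC and 62.2, 58.8 and 42.8 CPM in SEC (log2 fold change 3.20 ± 0.37, edgeR adjusted p = 0.000194). AT4G19460, with no UGT symbol, was at 7.12, 4.31 and 14.9 CPM in REC and 142, 88.4 and 87.8 CPM in SEC (3.60 ± 0.48, edgeR adjusted p = 0.000388), and 4.23 without REC replicate 3. Both were separate between the groups by a wide gap. The other higher genes were UGT90A2 (log2 fold change 3.28 ± 1.11, edgeR adjusted p = 0.0319), AT1G78800 (1.05 ± 0.29, edgeR adjusted p = 0.0131) and AT4G15260 (1.75 ± 0.62, edgeR adjusted p = 0.0375), and the other lower gene was AT1G75420 (fell by 3.23 ± 1.04, edgeR adjusted p = 0.0265). Each of these 4 calls was lost without at least 1 library, and the log2 fold change was 4.41 for UGT90A2 without REC replicate 2 and -3.97 for AT1G75420 without SEC replicate 1. Scaling by library size alone lost the calls on UGT90A2, AT1G78800 and AT4G15260.

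REC replicate 3 carried more of several SEC-rich UGT transcripts than the other REC libraries. Its level was the highest in REC, or tied for it, for 18 of the 31 higher genes. These include UGT84A2 and UGT85A3, which had 0 counts in every REC library. Its level was the lowest in REC for 2 of the 11 lower genes. The matching shares over all genes were not counted, and REC replicate 3 was also the REC library nearest to SEC over all genes. UGT91C1 was at 0.121, 0.1104 and 75.4 CPM in REC replicates 1, 2 and 3 and 131, 161 and 141 CPM in SEC. It was not called (log2 fold change 2.52 ± 1.67, edgeR adjusted p = 0.221), and without REC replicate 3 it was (10.19, edgeR adjusted p = 7.48e-06). The annotated exons of UGT91C1 share 67 bases with another gene on the same strand. UGT76E4 was at 2.41, 0 and 29.2 CPM in REC and 75.3, 34.1 and 47.8 CPM in SEC (edgeR adjusted p = 0.171), and was called without REC replicate 3 (5.47, edgeR adjusted p = 0.00417). UGT91C1 and UGT76E4 were named after their values were seen. The stress marker CYP81D8 was at 39.7, 32.7 and 457 CPM in the same REC libraries and 2022 to 3728 CPM in SEC. Its log2 fold change moved from 3.91 to 6.20 when REC replicate 3 was left out. What sets this library apart was not tested. Without it 4 more UGT genes passed the filter and were called higher, UGT71C3, UGT85A5, UGT79B3 and AT5G14860, each with 0 counts in REC and with 46, 106, 38 and 42 counts over the 3 SEC libraries. These 4 were also called without REC replicate 1 or without REC replicate 2, so they do not set REC replicate 3 apart. They are among the 37 UGT genes higher without it.

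**Figure D4:**
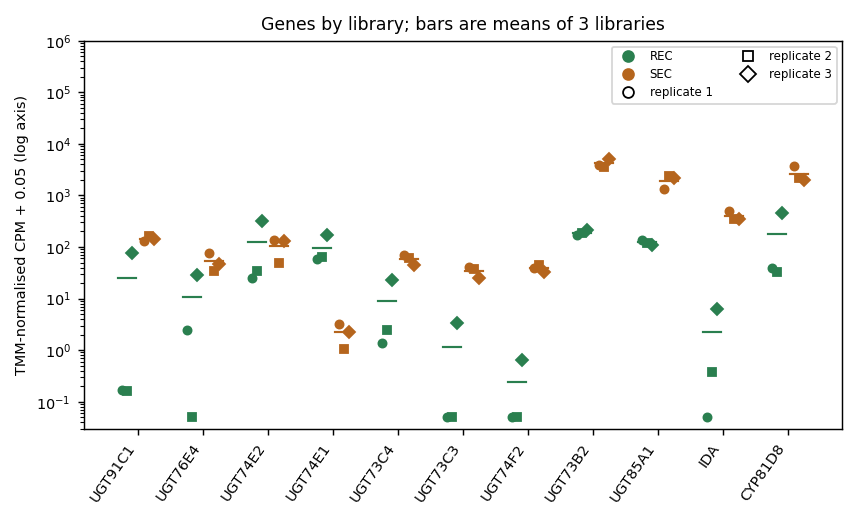
Level of UGT genes and markers in each REC library and in SEC, as CPM plus 0.05 on a log axis (vertical), 1 point a library and a bar at each mean. REC replicate 3 lies nearer to SEC than the other REC libraries for UGT91C1 (75.4 CPM against 0.121 and 0.1104) and UGT73C4 (22.8 against 1.33 and 2.37).

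Genes that make the UDP-sugar donors were split, with 10 of 24 tested higher in SEC, 8 lower and 6 not called, against 28.9% and 31.9% of all genes. UGP1, a UDP-glucose pyrophosphorylase gene, was at 332, 253 and 180 CPM in REC and 14.4, 19.8 and 11.2 CPM in SEC (fell by 4.07 ± 0.34 on the log2 scale, edgeR adjusted p = 3.99e-05). Its paralog UGP2 was at 45.6, 49.7 and 51.7 CPM in REC and 1.15, 4.92 and 4.27 CPM in SEC (fell by 3.82 ± 0.50, edgeR adjusted p = 0.000361). SUS1, a sucrose synthase gene whose enzyme makes UDP-glucose from sucrose, went the other way, at 444, 386 and 344 CPM in REC and 2123, 1945 and 1818 CPM in SEC (2.33 ± 0.20, edgeR adjusted p = 5.15e-05). None of these 3 genes overlapped between the groups. SUS3 rose by 2.06 and the UDP-glucose epimerase genes UGE1, UGE2, UGE3 and UGE4 by 2.34, 1.32, 3.72 and 1.104 on the log2 scale. For UDP-rhamnose, the donor of UGT89C1, UER1 fell by 3.26 ± 0.26 (edgeR adjusted p = 3.24e-05), RHM2 fell by 1.499 and RHM3 fell by 1.54, while RHM1 rose by 1.61. UGE1, UGE3, RHM1 and RHM2 overlap genes on the opposite strand, so reads from the overlapping stretches cannot be told apart by gene. The genes UGP2, SUS1, SUS3, the UGE genes and the RHM genes were named after their values were seen.

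Beta-glucosidase (BGLU) genes, whose enzymes cleave glucosides, had 9 of 19 tested genes (47.4%) higher in SEC and 6 (31.6%) lower. Over all genes tested, 28.9% were higher and 31.9% lower. BGLU46, a monolignol glucosidase gene, was at 19.1, 31.0 and 19.4 CPM in REC and 261, 578 and 856 CPM in SEC (log2 fold change 4.61 ± 0.48, edgeR adjusted p = 0.000115). Every SEC library was above every REC library. Its neighbour in function BGLU45 rose by 1.66 ± 0.51 (edgeR adjusted p = 0.0222), a call lost without REC replicate 1 or 2 or SEC replicate 2 or 3. BGLU16 was at 33.7, 28.7 and 62.5 CPM in REC and 537, 488 and 504 CPM in SEC (3.61 ± 0.33, edgeR adjusted p = 6.37e-05). BGLU42 was at 45.9, 50.2 and 53.6 CPM in REC and 3.73, 8.68 and 7.25 CPM in SEC (fell by 2.92 ± 0.36, edgeR adjusted p = 0.000249). BGLU45 and BGLU42 were named after their values were seen.

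**Figure D5:**
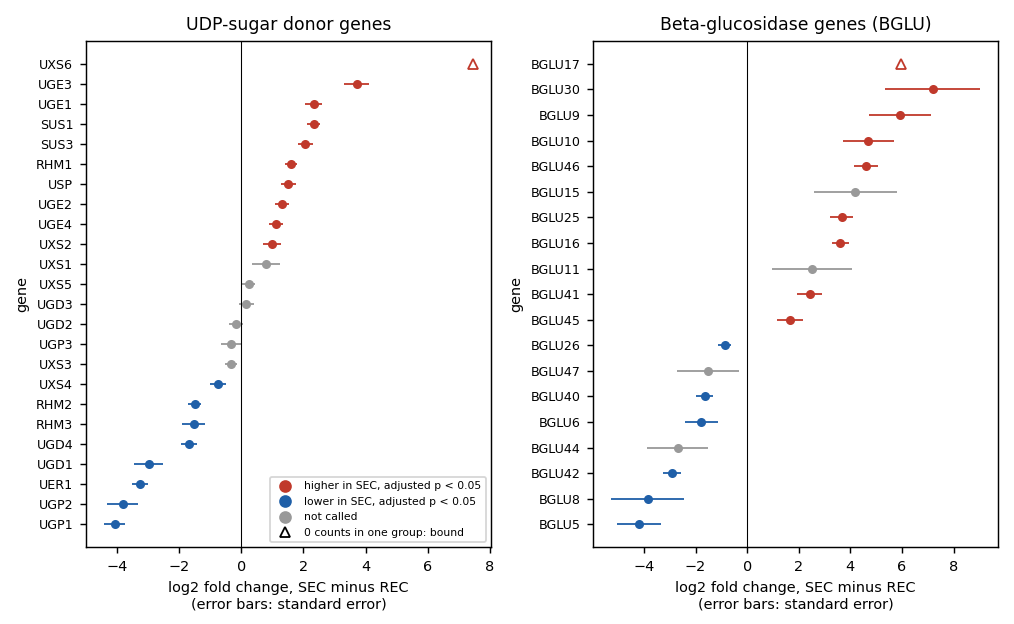
Log2 fold change with its SE (SEC minus REC, horizontal axes) of the tested genes for UDP-sugar synthesis and of the tested beta-glucosidase genes (1 row a gene), coloured by call (red higher, blue lower, grey not called), with triangles for bounds. UGP1 and UGP2 lie at -4.07 and -3.82 and SUS1 at 2.33.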

How the data were processed

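The deposited table holds raw read counts per gene for 6 libraries, with no normalization by the authors. Reads were handled on TAIR10 with TopHat2 2.0.9 and HTSeq 0.6.1, besides Trimmomatic 0.32.3, bcl2fastq 1.8.4, Picard 1.119, FastQC 0.11.2 and DESeq2, per the submitters' processing notes. Neither strand setting nor annotation release is given in the sources used. Per the labels' protocols, cDNA was amplified for 18 cycles with a SMART-Seq kit, so reads are not independent molecules and intervals and floors cover counting error only. The table's 5 summary rows stayed out of library sizes and tests. They held 42.8% to 45.9% of records with no feature, 6.86% to 11.8% at more than 1 site and 0.41% to 0.54% ambiguous.

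Genes were filtered with filterByExpr and scaled with TMM in edgeR 4.0.16 (R 4.3.3). SEC was compared with REC by the quasi-likelihood F test without covariates, with Benjamini-Hochberg adjustment over 17246 genes. The SE is the log2 fold change divided by the square root of F. A gene with 0 counts in a group has a bound against 3 counts over that group. Exons, strand and sequences came from RefSeq TAIR10.1, matched by locus for 32454 genes, and per-length levels divide CPM by its exon length. Of matched gene starts 14406 equal those of RefSeq when the table counts from 0 and 134 when it counts from 1. Coordinates are the table's, counted from 1. Coding identities were aligned with Biopython 1.88. The fit was also run on counts simulated from its own dispersions, with most genes left unchanged. That run does not test the scaling or the calls of these data.

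The UGT genes, the role, marker, donor and beta-glucosidase lists, and the tests were chosen with earlier results of these data known. Genes were named where they are tested members of 12 role lists, among the 8 largest changes in each direction with a mean of at least 10 CPM, among the 6 highest per length in a group, or called in an array with both directions. Other UGT genes were named after their values were seen. Alternatives were other scalings and filters, DESeq2 1.42.0, limma 3.58.1 voom, a replicate block, each library left out in turn and a stricter adjusted p of 0.01.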

Additional observations from a re-analysis of the deposited data

How the results depend on the processing

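The counts of UGT genes kept within 1.5 times under every alternative with a value. Higher and lower calls were 31 and 11 with RLE factors, 28 and 13 with upper-quartile factors, 23 and 15 with library size alone, 36 and 11 with no filter, 21 and 9 with at least 10 CPM in 3 libraries, 31 and 12 with DESeq2, 37 and 15 with limma voom and 21 and 8 at an adjusted p of 0.01. Leaving out 1 library gave 25 to 37 higher and 9 to 14 lower, and no call changed direction. UGT-symbol genes alone gave 28 and 9, and without REC replicate 3, a setting chosen after seeing the data, 33 and 8. Donor genes gave 9 to 11 higher and 7 to 8 lower without 1 library, and beta-glucosidase genes 8 to 11 and 4 to 5. Same-numbered libraries did not deviate together (correlations of -0.022, -0.01 and -0.016, among 9 from -0.029 to 0.04), so the numbers were not taken as pairs. With the replicate block 27 UGT genes were higher and 11 lower. Of single genes, 711 values kept their side, 50 lost and 11 gained a call, and 13 turned sign, all in genes without a call. UGT74E2 went from -0.26 to 0.75 with voom, 0.54 with the replicate block, 1.81 without REC replicate 3 and 0.02 without SEC replicate 2, with a range of -0.75 to 1.81 without 1 library. UGT74B1 went from -0.04 to 0.19 and 0.23 without REC replicate 1 or SEC replicate 3 (range -0.23 to 0.23), and UGT76C1 from -1.62 to 0.65 without REC replicate 2 (range -2.29 to 0.65). UGT74C1 went from 0.53 to -0.024 with library size alone. UGT89A2 went from 0.10 to -0.15 with upper-quartile factors, -0.45 with library size alone, and -0.18, -0.17 and -0.11 without REC replicate 2, REC replicate 3 or SEC replicate 3 (range -0.18 to 0.92). The cause was not tested.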

Other observations

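Several UGT genes without a call had groups that did not overlap. UGT71B2 was at 1.33, 1.99 and 0.353 CPM in REC and 2.49, 4.03 and 9.94 CPM in SEC (edgeR adjusted p = 0.0564). Its array neighbour UGT71B1 was at 6.40, 9.50 and 10.9 CPM in REC and 0, 0.273 and 4.18 CPM in SEC (edgeR adjusted p = 0.105, and 0.00461 without SEC replicate 3). UGT71B2 and UGT71B1 overlap the same opposite-strand gene. UGT85A4, which lies outside the array of UGT85A1, overlapped between the groups at 4.88 to 6.46 CPM in REC and 4.26 to 8.36 CPM in SEC (edgeR adjusted p = 0.624).

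Outside the UGT genes, BGLU30, a gene known to respond to darkness and senescence, was at 0, 0 and 19.5 CPM in REC and 1047, 1090 and 704 CPM in SEC (log2 fold change 7.19 ± 1.84, edgeR adjusted p = 0.00954). All its REC reads came from replicate 3, and without it SEC was at least 10900-fold higher, while leaving out either other REC library lowered the log2 fold change, to no less than 6.59. UXS6, which makes UDP-xylose, had 0 counts in REC, and SEC was at least 176-fold higher (edgeR adjusted p = 0.000209), or at least 114-fold without REC replicate 2. These genes were chosen after their values were seen.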
